A study of Chlamydomonas reinhardtii with 6 samples.

Results

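The 7 genes described here encode enzymes of carotenoid and xanthophyll synthesis in the unicellular green alga Chlamydomonas reinhardtii. They were taken by identifier from the 17741 gene models of the deposited table, with earlier results of these data known. The gene names are those paired with the identifiers in the list of members used for selection, since neither the table nor the reference gene table carries symbols. Poly-A RNA was sequenced from 6 cultures of strain CC-4532. Of these, 3 were grown with 6 µM manganese, which the labels call the control, and 3 with 1000 µM manganese, the excess condition. All were grown in acetate-containing TAP medium at 24 °C, shaken at 180 rpm with continuous illumination near 50 µmol photons per square metre and second, and were harvested in mid-logarithmic growth at 3000000 cells per mL. Every flask received cells of the same strain from a starter culture, and the p-values rest on the spread between flasks.

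Carotenoids are built in the chloroplast from isoprenoid units that the methylerythritol phosphate (MEP) pathway makes from pyruvate and glyceraldehyde 3-phosphate. Phytoene is the first carotenoid, and desaturation, isomerisation and cyclisation turn it into the carotenes. Hydroxylation and epoxidation then give the xanthophylls. In the thylakoid, carotenoids harvest light and quench excited chlorophyll and reactive oxygen, and the xanthophyll cycle converts violaxanthin to zeaxanthin in excess light and back again when the light is low.

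All 7 genes were expressed in every library, and none was listed at 0 or averaged under 1 FPKM. FPKM is the number of fragments scaled to transcript length and library size, so levels of different genes can be set side by side. By limma's moderated test, with p-values adjusted after Benjamini and Hochberg, none of the 7 passed an adjusted p of 0.05 for the difference between the manganese levels, and the adjusted p of each was 0.99997. None had an unadjusted p under 0.05. Over the whole table the adjusted threshold called 0% of 12543 tested genes and the unadjusted threshold 2.82%. PDS1, the phytoene desaturase, was the 1 member whose groups did not overlap, with higher values in all 3 libraries at 1000 µM. Such a separation was found in 8.04% of all tested genes, and in 4.34% with the higher values at 1000 µM, so 1 member in 7 is near the background.

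FPKM values do not keep the sequencing depth, which is unknown here, and no counting interval is given. The summed FPKM of a library lay between 629620 and 767912. The first principal component of the tested genes held 57.8% of the variance and separated 6 µM replicate 1 (score -12.4) and 1000 µM replicate 3 (score -24.9) from the remaining 4 libraries (3.67 to 12.9). Results that rest on either library are given with and without it. FPKM is relative to the other RNA sequenced, but with totals that differ it is not a share of a library's summed FPKM. A change in the amount of RNA per cell was not measured.

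**Figure D1:**
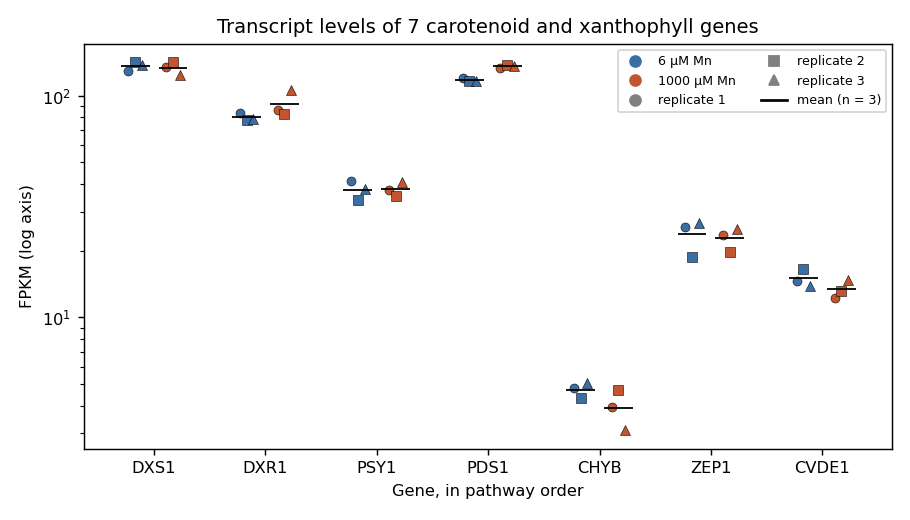
FPKM (log axis) of the 7 genes in pathway order, with 3 libraries at 6 µM (blue) and 3 at 1000 µM manganese (orange), and horizontal bars for the group means. The genes span 123.787 to 141.294 FPKM for DXS1 down to 3.092 to 5.033 FPKM for CHYB, and PDS1 alone has all 3 libraries at 1000 µM above all 3 at 6 µM.

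The levels of the 7 genes followed one order in nearly every library. DXS1 and PDS1 had the highest means over the 6 libraries, at 134.59 and 126.7 FPKM, and could not be separated: DXS1 was the higher in 5 of 6 libraries, but its lowest value, 123.8 FPKM, lay below the highest of PDS1, 137.6 FPKM. DXR1 followed at 85.9 FPKM, PSY1 at 37.7 FPKM, ZEP1 at 23.2 FPKM, CVDE1 at 14.2 FPKM and CHYB at 4.31 FPKM. In 5 of the 6 neighbouring pairs of this order every library of the higher gene lay above every library of the lower gene. The narrowest of these 5 gaps was between ZEP1, with a lowest value of 18.6 FPKM, and CVDE1, with a highest value of 16.6 FPKM. The mean of DXS1 was 31.2 times that of CHYB. Among all tested genes, DXS1 stood at the 95.7th percentile of mean FPKM and CHYB at the 38.1st, so the enzymes that feed the pathway were among the abundant transcripts and the hydroxylase was not.

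DXS1, deoxyxylulose 5-phosphate synthase, catalyses the first step of the MEP pathway and is widely regarded as one of its controlling enzymes. Its gene (Cre07.g356350.v5.5) lies on chromosome 7 from 6196830 to 6202396 in assembly Chlamydomonas_reinhardtii_v5.5. DXS1 measured 129.3, 141.3 and 137.5 FPKM in the 6 µM replicates 1 to 3, and 134.4, 141.3 and 123.8 FPKM in the 1000 µM replicates 1 to 3. As deposited, the groups overlapped almost fully, and the lowest value belonged to 1000 µM replicate 3. The control cultures averaged 136.02 ± 6.10 FPKM and the excess cultures 133.2 ± 8.82 FPKM (SD, n = 3 each). The difference of log2(FPKM + 1) was -0.032 with a 95% interval from -0.27 to 0.21, which at this level is a change in FPKM between -17.3% and 15.7%. Without 1000 µM replicate 3 the difference was 0.020, so its sign is not determined. With every library scaled to the same FPKM total, the groups of DXS1 did not overlap. The 6 µM libraries then lay at 137.1 to 143.5 FPKM and the 1000 µM libraries at 125.3 to 133.9 FPKM. The log2 difference became -0.12, with an interval from -0.37 to 0.14. Under that scaling 10.7% of all tested genes had groups that did not overlap.

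DXR1, deoxyxylulose 5-phosphate reductoisomerase, makes methylerythritol phosphate in the next step and needs a divalent metal ion such as magnesium or manganese for catalysis. Its gene (Cre12.g546050.v5.5) lies on chromosome 12 from 8710460 to 8717173. DXR1 measured 83.9, 77.4 and 78.6 FPKM in the 6 µM replicates and 85.8, 83.0 and 106.5 FPKM in the 1000 µM replicates. A single library, 1000 µM replicate 3, stood well above the rest, while 1000 µM replicate 2 lay below 6 µM replicate 1. On average the control cultures held 79.96 ± 3.45 FPKM and the excess cultures 91.8 ± 12.8 FPKM (SD, n = 3 each). The log2 difference was 0.19 with an interval from -0.094 to 0.47. Without 1000 µM replicate 3, which stands apart in the table as a whole, it was 0.078, and without both libraries that stand apart it was 0.11.

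PSY1, phytoene synthase, joins 2 molecules of geranylgeranyl diphosphate and commits them to the carotenoid branch. Its gene (Cre02.g095092.v5.5) lies on chromosome 2 from 3336147 to 3340314. PSY1 measured 41.3, 33.7 and 38.0 FPKM in the 6 µM replicates and 37.4, 35.2 and 40.8 FPKM in the 1000 µM replicates. All 3 libraries at 1000 µM fell inside the range of the 6 µM libraries. The control cultures averaged 37.7 ± 3.82 FPKM and the excess cultures 37.8 ± 2.85 FPKM (SD, n = 3 each). This was the smallest difference among the 7 genes, 0.0075 on the log2(FPKM + 1) scale, with an interval from -0.26 to 0.27, or from -16.7% to 21.2% in FPKM. Its sign turned under some settings, for instance to -0.078 with every library scaled to the same FPKM total.

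PDS1, phytoene desaturase, introduces double bonds into phytoene and passes the electrons to plastoquinone. Its gene (Cre12.g509650.v5.5) lies on chromosome 12 from 2063636 to 2067715. PDS1 measured 120.3, 116.4 and 116.4 FPKM in the 6 µM replicates and 133.8, 137.6 and 135.9 FPKM in the 1000 µM replicates. The values within each group lay close together, and every library at 1000 µM was above every library at 6 µM. On average the control cultures held 117.7 ± 2.25 FPKM and the excess cultures 135.7 ± 1.91 FPKM (SD, n = 3 each), a difference of 15.3% of the 6 µM level. On the log2(FPKM + 1) scale the difference was 0.20, its standard error 0.10 and its interval -0.014 to 0.42 (limma adjusted p = 0.99997). It ranked 446th by p among the 12543 tested genes.

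The spread of PDS1 between cultures was unusually small. Its within-group SD of log2(FPKM + 1) was 0.024, and only 0.239% of the tested genes had a smaller one. Limma's standard error draws this SD towards that of genes of a like level and is therefore wider than the gene's own 3 values per group would give. An exact permutation test of 3 against 3 cannot go below p = 0.10, so it could not settle the difference either. The pair of libraries that stand apart gave a log2 difference of 0.17 between them, and the other 4 libraries gave 0.22. Beside it, the 161 tested genes whose mean lay within 1.2-fold of that of PDS1, a window chosen after its values were seen, also leaned upward: the quartiles of their log2 differences were 0.00059 and 0.15 and the median was 0.061. For DXR1 the same window held 245 genes with a median of 0.083. The medians for the other members were 0.063 (DXS1), 0.051 (PSY1), 0.049 (ZEP1), 0.028 (CVDE1) and -0.0038 (CHYB). PDS1 and DXR1 lay above the upper quartile of their windows and PSY1 between the quartiles. DXS1, ZEP1, CVDE1 and CHYB lay below the lower quartile of theirs.

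The separation of PDS1 held under median-of-ratios scaling and quantile normalization, where its log2 difference was 0.20 and 0.13, but not under scaling to a common total. Median-of-ratios scaling hardly changed the deposited values, with a difference of 0.202 in place of 0.204, so it is hardly a separate check. With every library scaled to the same FPKM total, PDS1 came to 133.4, 113.04 and 119.1 FPKM in the 6 µM replicates and 133.2, 125.1 and 137.6 FPKM in the 1000 µM replicates. The groups then overlapped, because 6 µM replicate 1, whose FPKM total was the lowest, lay above 1000 µM replicates 1 and 2. The log2 difference became 0.12. That scaling also moved the median over all tested genes, from 0.011 to -0.061.

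**Figure D2:**
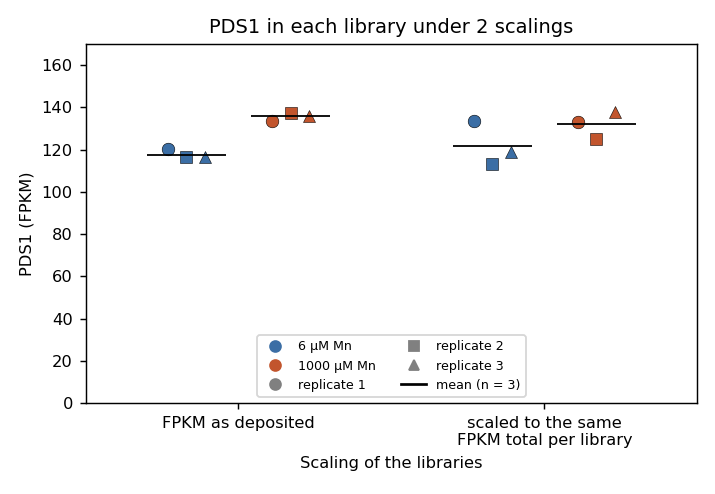
PDS1 in FPKM in each of the 6 libraries, as deposited (left) and with every library scaled to the same FPKM total (right), with horizontal bars for the means of 3. The groups lie apart as deposited, at 116.4 to 120.3 against 133.8 to 137.6 FPKM, and overlap after scaling because 6 µM replicate 1 moves to 133.4 FPKM.

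CHYB is the carotene beta-hydroxylase, a non-haem iron enzyme that turns beta-carotene into zeaxanthin. Its gene (Cre04.g215050.v5.5) lies on chromosome 4 from 1258008 to 1263154. CHYB measured 4.78, 4.32 and 5.03 FPKM in the 6 µM replicates and 3.93, 4.70 and 3.09 FPKM in the 1000 µM replicates. The groups overlapped, since 1000 µM replicate 2 lay among the 6 µM libraries, and the lowest value was again in 1000 µM replicate 3. The control cultures averaged 4.71 ± 0.362 FPKM and the excess cultures 3.91 ± 0.804 FPKM (SD, n = 3 each). The log2 difference of -0.23 was the largest in size of the 7, with an interval from -0.53 to 0.066, or from -37.1% to 5.66% in FPKM. Omitting 1000 µM replicate 3 gave -0.11, and omitting 1000 µM replicate 2 gave -0.34 (limma adjusted p = 0.935), so its size depended on single libraries. At this low level the added 1 understates a change in FPKM, and with an added 0.1 the log2 difference was -0.28.

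ZEP1, zeaxanthin epoxidase, converts zeaxanthin through antheraxanthin to violaxanthin, and the npq2 mutant of this alga that lacks it accumulates zeaxanthin. Its gene (Cre02.g082550.v5.5) lies on chromosome 2 from 1244277 to 1250969. ZEP1 measured 25.7, 18.6 and 26.7 FPKM in the 6 µM replicates and 23.5, 19.7 and 25.1 FPKM in the 1000 µM replicates. It was low in replicate 2 of both groups and had the largest pooled within-group SD of log2(FPKM + 1) of the 7, at 0.23. On average the control cultures held 23.7 ± 4.40 FPKM and the excess cultures 22.8 ± 2.75 FPKM (SD, n = 3 each). The log2 difference was -0.044 with the widest interval of the 7, from -0.40 to 0.31, or from -25.3% to 25.3% in FPKM. Leaving out 6 µM replicate 1, 6 µM replicate 3 or 1000 µM replicate 2 turned its sign.

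CVDE1, the chlorophycean violaxanthin de-epoxidase, works in the opposite direction and makes zeaxanthin in excess light. It is unrelated in sequence to the violaxanthin de-epoxidase of land plants and resembles lycopene cyclases. Its gene (Cre04.g221550.v5.5) lies on chromosome 4 from 2442597 to 2451157. CVDE1 measured 14.7, 16.6 and 13.9 FPKM in the 6 µM replicates and 12.3, 13.1 and 14.8 FPKM in the 1000 µM replicates. At 1000 µM the values of replicates 1 and 2 lay below the 6 µM libraries, and that of replicate 3 lay among them. The control cultures averaged 15.1 ± 1.39 FPKM and the excess cultures 13.4 ± 1.26 FPKM (SD, n = 3 each). The log2 difference was -0.16 with an interval from -0.41 to 0.095, or from -26.5% to 7.30% in FPKM. The pair of libraries that stand apart gave 0.010 and the other 4 libraries -0.24, so its size depended on which libraries were used.

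**Figure D3:**
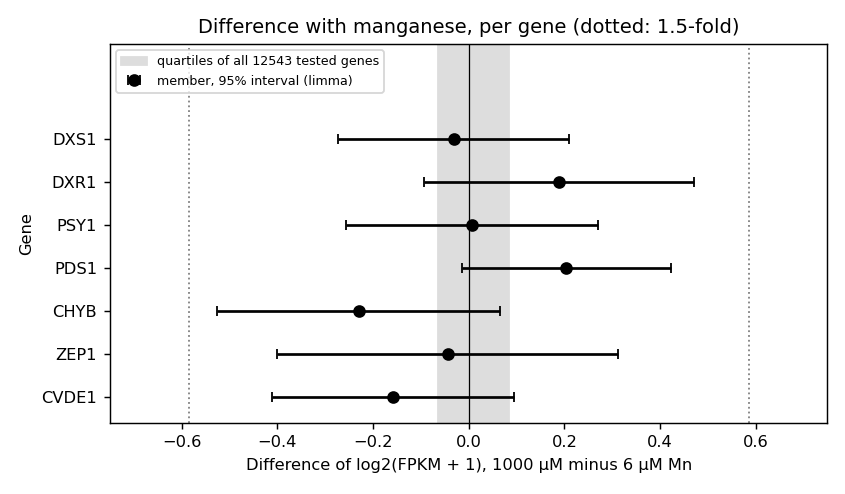
Difference of log2(FPKM + 1) between 1000 µM and 6 µM manganese for each gene, with the 95% interval from limma. The grey band runs from the lower to the upper quartile of all 12543 tested genes, -0.065 to 0.084, the dotted lines mark a 1.5-fold change, and all 7 intervals contain 0 and lie between the dotted lines.

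Set side by side, 3 members had a higher mean and 4 a lower mean of log2(FPKM + 1) at 1000 µM. The differences ran from -0.23 for CHYB to 0.20 for PDS1, with a median of -0.032, while the median of all tested genes was 0.011. All 7 intervals contained 0, though those of PDS1 and CHYB did not under 2 alternatives each. All 7 also lay inside a 1.5-fold change of FPKM + 1, as did those of 91.6% of all tested genes, and inside a 2-fold change, as did 99.3%. In FPKM itself, the outermost bounds were -37.1% for CHYB and 39.2% for DXR1. These bounds give the size of change that 3 cultures per group leave possible for a single gene, with no adjustment for many genes, and do not show that the levels were equal.

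In the MEP pathway DXR1 had a higher mean at 1000 µM and DXS1 a nearly equal one, and in carotene synthesis PDS1 was higher and PSY1 nearly equal. Of the 3 xanthophyll genes, CHYB and CVDE1 had a lower mean at 1000 µM. ZEP1 had a nearly equal one (log2 difference -0.044), whose sign turned when some single libraries were left out. The groups overlapped for each of the 3. The profiles over the 6 libraries were compared by the root-mean-square difference of log2(FPKM + 1) after centring each gene on its mean. PSY1 and ZEP1 were the most alike of all pairs, at 0.11, both low in 6 µM replicate 2 and 1000 µM replicate 2. DXR1 and PDS1 followed, also at 0.11, and the least alike were DXR1 and CHYB, at 0.33, which lay at opposite extremes in 1000 µM replicate 3. For DXS1 the nearest member was PDS1, at 0.14, and for CHYB and CVDE1 it was DXS1, at 0.15 each. DXS1, PSY1, PDS1 and CVDE1 deviated from their own means by 0.069, 0.10, 0.10 and 0.13 on this measure, less than from their nearest member, so a flat profile was closer to them than any other member.

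**Figure D4:**
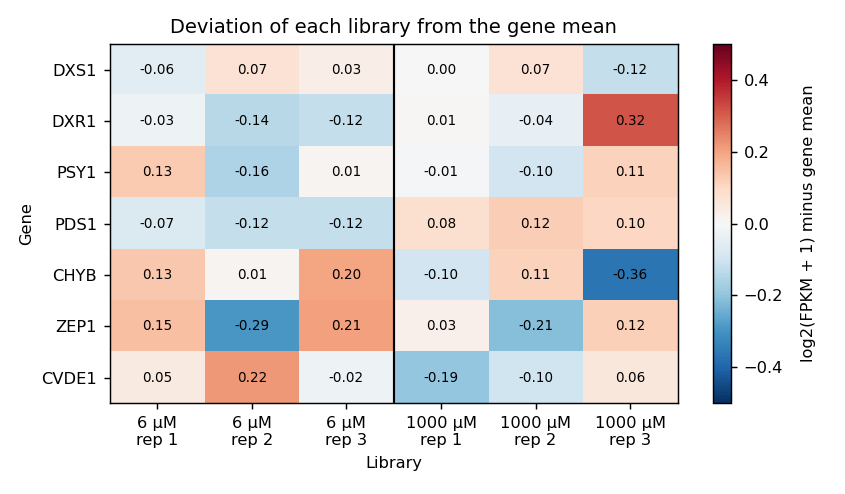
Deviation of log2(FPKM + 1) from the mean of each gene (rows) in each library (columns, with a line between 6 µM and 1000 µM). The extremes are CHYB at -0.36 and DXR1 at 0.32, both in 1000 µM replicate 3, ZEP1 is low in both libraries numbered 2 (-0.29 and -0.21), and the sign of PDS1 is the 1 that follows the manganese level in all 6 libraries.

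Among all tested genes, the profiles most like that of PSY1 were those of Cre01.g023250.v5.5 and Cre09.g406000.v5.5, at root-mean-square differences of 0.022 and 0.024 over 6 libraries. The level of Cre01.g023250.v5.5 (chromosome 1, 3599810 to 3609525) was 3.93 ± 0.507 FPKM in the control and 3.98 ± 0.482 FPKM in the excess cultures (SD, n = 3 each). That of Cre09.g406000.v5.5 (chromosome 9, 6198277 to 6203994) was 4.47 ± 0.601 and 4.62 ± 0.336 FPKM. Neither is annotated by name in the sources used here. Picked as the closest of 12543 tested genes over 6 libraries, they can be close to PSY1 without any link to it. Their FPKM was well below that of PSY1, and the added 1 shrinks deviations more at such a level.

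Ratios of 2 genes within a library do not change when all its values are scaled by a common factor, though quantile normalization can change them. Between steps of the pathway, 5 such ratios were formed after the values had been seen. The ratio of PDS1 to PSY1 was 2.91, 3.46 and 3.06 in the 6 µM replicates and 3.57, 3.91 and 3.33 in the 1000 µM replicates. It was higher at 1000 µM on average, at 3.60 ± 0.293 against 3.14 ± 0.281 (SD, n = 3 each), but the groups overlapped (two-sided exact permutation p = 0.20, adjusted over 5 ratios 0.625). The ratio of CVDE1 to ZEP1, the opposing enzymes of the xanthophyll cycle, was 0.571, 0.891 and 0.520 in the 6 µM replicates and 0.523, 0.665 and 0.588 in the 1000 µM replicates. The 1000 µM values all lay inside the 6 µM range, and CVDE1 was the lower of both transcripts in every library (exact permutation p = 0.90).

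The other 3 ratios also overlapped between groups. DXR1 to DXS1 ran from 0.548 to 0.861, with its highest value in 1000 µM replicate 3 (exact permutation p = 0.30). CHYB to PSY1 ran from 0.0757 to 0.134, with its lowest value in that library (exact permutation p = 0.40), and ZEP1 to CHYB from 4.20 to 8.12, with its highest value there (exact permutation p = 0.50). The smallest p that 3 against 3 libraries allow is 0.10. One end of each of these 3 ranges was in 1000 µM replicate 3, a library that stands apart, and the other end was in a library numbered 2.

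**Figure D5:**
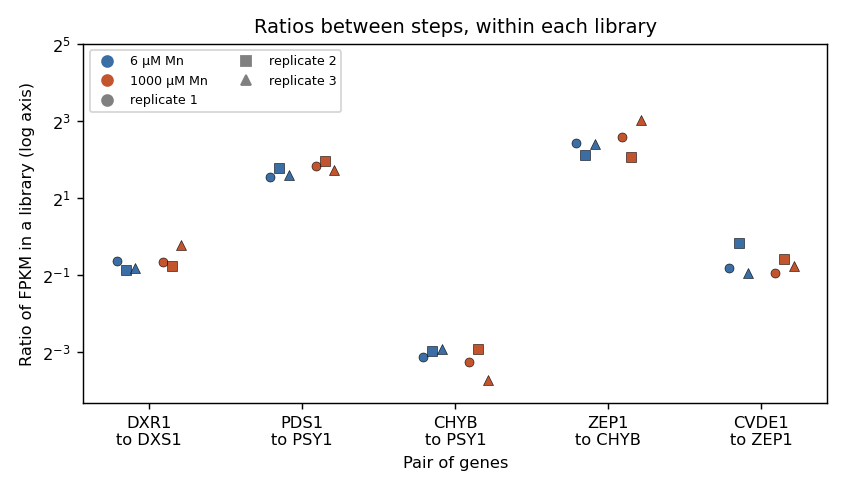
Ratio of FPKM between pairs of genes within each library (log axis), at 6 µM (blue) and 1000 µM manganese (orange), with 1 marker shape per replicate number. The groups overlap for all 5 ratios, and the highest ratios of DXR1 to DXS1 (0.861) and of ZEP1 to CHYB (8.12) are both in 1000 µM replicate 3.

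The 7 genes are spread over 4 chromosomes, and no gene model of the reference overlaps any of them. The 3 pairs on a common chromosome are far apart: DXR1 and PDS1 on chromosome 12 by 6.64 Mb, PSY1 and ZEP1 on chromosome 2 by 2.09 Mb, and CHYB and CVDE1 on chromosome 4 by 1.18 Mb. The nearest neighbouring gene model begins or ends 30 bp from ZEP1, 34 bp from CVDE1 and 51 bp from PSY1, against 907 bp from CHYB. Whether reads at such close ends were shared between genes depends on the authors' counting, which the sources used here do not give. Together the 7 genes held between 0.0566% and 0.0667% of the summed FPKM of a library. The share was lowest in 1000 µM replicate 2 and highest in 6 µM replicate 1, and the groups overlapped.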

How the data were processed

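The authors deposited FPKM values in 1 table, with a row per gene model and a column per library. The submitters' processing notes name CASAVA, STAR and Cuffdiff 2.2.1. Their settings, the genome build of the alignment, the library normalization and the strand setting were not given in the sources used here. Columns were matched to samples by manganese level and replicate number in the titles. The identifiers were matched by locus tag to the RefSeq gene table of Chlamydomonas_reinhardtii_v5.5, which gave positions and 0 symbols. The other genes of the pathway are therefore not named or counted here.

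Values were transformed to log2(FPKM + 1). The 12543 genes averaging 1 FPKM or more entered a two-sided limma test (version 3.58.1, R 4.3.3), using eBayes with a trend of variance on level. P-values were adjusted over all of them by Benjamini-Hochberg, at a threshold of 0.05, and intervals are at 95%. No count model was run, because the depth is unknown. The test was checked on simulated data with independent noise in each gene and library. Those data lack the variation shared across genes by the libraries that stand apart, so its effect on the test was not checked. Ratios were tested by exact permutation in scipy 1.17.1, and figures drawn with matplotlib 3.10.9.

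All 7 members were named whatever their values, with the most similar profile of each among the members and the 2 most like PSY1 in the table. The members, lists and alternatives were chosen with earlier results of these data known. Alternatives were other pseudocounts, filters and scalings, a replicate block, eBayes without a trend, and leaving out libraries. The labels name no batch.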

Additional observations from a re-analysis of the deposited data

How the results depend on the processing

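In all 16 alternatives 0 members passed an adjusted p of 0.05, and the smallest adjusted p was 0.735, for PDS1 with no filter on low values. Over the whole table each alternative called between 0 and 3 of all tested genes, so 0 members is no more than the background. At an unadjusted p under 0.05, 0 members passed as reported, but PDS1 did with no filter (interval 0.11 to 0.30) and with eBayes without a trend (0.020 to 0.39). CHYB did with the same FPKM total (-0.60 to -0.011) and without 1000 µM replicate 2 (-0.63 to -0.060), and in both its lower bound passed a 1.5-fold change. In these 4 settings 2.92% to 4.53% of all tested genes passed that p. The lower bound of CHYB also passed a 1.5-fold change with an added 0.1, at -0.64. It did so without 1000 µM replicate 1 (-0.61) and without 6 µM replicate 2 (-0.63). The upper bound of DXR1 passed it without 1000 µM replicate 1 or 2, at 0.59 in both. The signs of DXR1, PDS1, CHYB and CVDE1 held in every alternative that tested them, and CHYB was not tested at a minimum mean of 5 FPKM. The filters, the replicate block and eBayes without a trend leave the difference of a gene unchanged, so they could not turn a sign. PSY1 turned to -0.031 after quantile normalization and to -0.078 with the same FPKM total per library. With 1 library left out, DXS1 ran from -0.075 to 0.020 (positive only without 1000 µM replicate 3). PSY1 then ran from -0.069 without 6 µM replicate 2 to 0.075, and was also negative without 1000 µM replicate 3. ZEP1 ran from -0.20 to 0.051, positive without 6 µM replicate 1 or 3 and highest without 1000 µM replicate 2. The median over members, -0.032, became -0.12 with the same FPKM total and ran from -0.069 to 0.051 with 1 library left out. The 1 member whose groups did not overlap became 2 after quantile normalization (PDS1 and CVDE1), beside 7.48% of all tested genes, and 3 without both libraries that stand apart (PDS1, DXR1 and CVDE1), beside 34.7%. It stayed 1 with the same FPKM total, where it was DXS1, lower at 1000 µM, in place of PDS1, beside 10.7%. With 1 library left out it ran from 1 to 3, beside 13.8% to 23.4%, against 8.04% with 6 libraries. Groups of fewer libraries fail to overlap more often by number alone, so counts with libraries left out compare only with the share beside them. What else caused these shifts was not tested. Libraries with the same number deviated from their group means with correlations across genes of -0.40, 0.51 and -0.50, so no pairing was assumed. A replicate block cannot move a difference in this balanced design, so the median of -0.032 is the same by construction, and 0 members passed the adjusted threshold with it. The unknown depth limits what can be said of CHYB, the lowest of the 7.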
